A study of Mus musculus with 9 samples.

Results

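The cellular answer to hyperosmotic stress was followed through 9 genes in RAW264.7 cells, a transformed mouse macrophage-like cell line, kept for 6 h in high glucose with or without sitagliptin. The genes are the transcription factor gene Nfat5, the osmolyte carrier genes Slc5a3, Slc6a12 and Slc6a6, the aldose reductase family genes Akr1b3 and Akr1b8, the water channel gene Aqp1, the chaperone gene Hspa4l and the kinase gene Sgk1. They were chosen by name, with earlier results of these data known. All 9 were found, 1 row each, among the 20627 features of the count table. The NC group is the control, and the sources used here give no glucose concentration or time for it. The HG group received 35 mmol/l glucose for 6 h, and the HG-SIG group the same glucose for the same time with sitagliptin phosphate, an inhibitor of dipeptidyl peptidase 4, at a dose that is not given in the sources used here. Each group has 3 libraries of polyadenylated RNA. All come from this 1 cell line and carry the same batch label, and the labels do not say whether replicates are separate cultures, so the spread that each p-value rests on is that between libraries and may be technical. No group was labelled as an osmotic control or as sitagliptin without added glucose, so an effect of glucose as a sugar and an effect of its osmotic strength cannot be told apart.

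Cells that lose water to a concentrated medium take up or make small organic solutes, called compatible osmolytes, which restore cell volume without disturbing proteins as salt does. NFAT5, also called TonEBP, is the transcription factor that drives this response: in kidney medulla and in macrophages under high salt it binds a DNA element named TonE upstream of the genes for the myo-inositol carrier (Slc5a3), the betaine carrier (Slc6a12), the taurine carrier (Slc6a6) and aldose reductase (Akr1b3), which turns glucose into the osmolyte sorbitol. Aqp1 moves water through the plasma membrane, Hspa4l encodes a chaperone of the HSP110 family found as an osmotic stress protein, and Sgk1 encodes a kinase that is induced by cell shrinkage and by glucocorticoids and acts on ion transport.

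Upstream DNA is shown for 3 genes that behaved differently, the carriers Slc6a12 and Slc5a3, which had their highest levels in HG, and Aqp1, which had its lowest level in HG-SIG. Each sequence is the 250 bases before a transcription start in RefSeq (GRCm38.p6), 5′ to 3′ on the strand of the gene, which is the plus strand for all 3. Capitals mark the TonE in Slc6a12 and GGGCGG, the GC box, in the other 2.
Slc6a12 (chr6:121342324-121342573, the most upstream of its 5 windows): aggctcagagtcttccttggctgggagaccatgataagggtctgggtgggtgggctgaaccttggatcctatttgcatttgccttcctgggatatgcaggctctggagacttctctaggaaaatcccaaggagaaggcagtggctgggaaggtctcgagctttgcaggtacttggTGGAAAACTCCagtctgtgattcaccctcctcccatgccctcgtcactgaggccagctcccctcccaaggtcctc
Slc5a3 (chr16:92058072-92058321): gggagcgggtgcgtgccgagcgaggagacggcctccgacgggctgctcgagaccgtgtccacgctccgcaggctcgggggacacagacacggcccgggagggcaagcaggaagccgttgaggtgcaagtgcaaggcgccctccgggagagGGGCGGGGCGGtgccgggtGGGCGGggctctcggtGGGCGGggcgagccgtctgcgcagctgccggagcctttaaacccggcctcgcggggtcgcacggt
Aqp1 (chr6:55336049-55336298): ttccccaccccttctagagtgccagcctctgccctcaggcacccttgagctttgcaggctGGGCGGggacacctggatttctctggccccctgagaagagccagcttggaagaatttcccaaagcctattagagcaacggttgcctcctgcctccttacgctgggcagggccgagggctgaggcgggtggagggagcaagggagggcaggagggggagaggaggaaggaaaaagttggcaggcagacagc
Of the 9 genes, 7 had a RefSeq window, 16 windows in all; Slc6a6 and Akr1b3 were not matched. TonE, searched on both strands, was found in 1 of the 16 windows, as TGGAAAACTCC in the Slc6a12 sequence above, with its first base 75 bases before the start. It was found in 4.3% of all 32851 upstream windows of the same length. The core of the element, TGGAAA, which lies within TonE, was found on either strand in that window and in 2 of the 6 windows of Sgk1, against 18.6% of all windows. GC boxes on either strand were found 4 times in the Slc5a3 window, 4 times in that of Hspa4l and once in that of Aqp1. At least 1 was found in 7 of the 16 windows, those of Nfat5, Akr1b8, Slc5a3, Hspa4l and Aqp1 and 2 of Sgk1, and in 32.7% of all windows. Slc6a12 has 5 of the 16 windows and Sgk1 6, so these tallies are per window and not per gene. These matches describe the letters in these windows and say nothing of binding, or of DNA further than 250 bases upstream.

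Library totals ranged from 23285821 to 31571578 counts. Levels are given as CPM, the counts of a gene scaled to a common library total, with TMM scaling, mean ± SD with n = 3 libraries per group, and a gene is called where its Benjamini-Hochberg adjusted p in edgeR's quasi-likelihood test, taken over all 13311 genes tested, is under 0.05. The 3 comparisons share libraries: HG enters the first as the treated group and the second as the reference, so a high HG value raises 1 fold change and lowers the other. HG replicate 3 stood further from its group than other replicates, with 8.18 and 8.94 chi-square units per gene against the other HG libraries and 2.75 to 5.76 for pairs within the other groups. Of 10 macrophage markers, 9 passed the filter on low counts and Mrc1 did not, at 0.116 CPM or less in each group mean, and their summed level was 11100 to 11600 CPM in NC, 10000 to 10800 in HG and 5220 to 5330 in HG-SIG. Lyz2 was the largest part of that sum, with means of 6290, 6110 and 2820 CPM in NC, HG and HG-SIG. Csf1r was next, with 1990, 2380 and 1370. The single markers did not move alike. Cd14 had 1570, 759 and 258 CPM and Ptprc 276, 241 and 193. Fcgr1 had 25.3, 33.9 and 27.6, and so stood above NC in HG-SIG. The markers of epithelium, fibroblasts and lymphocytes summed to at most 0.201 CPM per list in any library. In bulk RNA, fewer cells of a type and less RNA per cell cannot be told apart.

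The 9 genes spanned a wide range of levels. Per kilobase of the longest principal transcript (GENCODE M21), the order in NC was Akr1b3 (225 ± 10.6 CPM per kilobase), Akr1b8 (119 ± 0.436), Slc6a6 (95.4 ± 3.93), Slc6a12 (65.9 ± 6.51), Nfat5 (31.5 ± 0.911), Slc5a3 (13.6 ± 0.5), Hspa4l (5.43 ± 0.181), Sgk1 (1.96 ± 0.359) and Aqp1 (1.49 ± 0.196). Only the last 2 of this order lay close, with Sgk1 between 1.59 and 2.31 CPM per kilobase and Aqp1 between 1.27 and 1.66, so their NC libraries overlap. In HG, Slc6a12 at 140 ± 16.6 CPM per kilobase stood second after Akr1b3 (309 ± 32.9), and the Slc5a3 libraries (28.8 to 38.3) overlapped those of Nfat5 (30.4 to 37.3). In HG-SIG, Akr1b8 at 36.6 ± 2.38 CPM per kilobase lay next above Nfat5 at 31.3 ± 1.48, and Aqp1 at 0.146 ± 0.0331 remained last. The place of Akr1b3 rests on the length used: over all its annotated exons, retained introns included, its level in NC was 37.2 CPM per kilobase and that of Akr1b8 was 108.

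**Figure D1:**
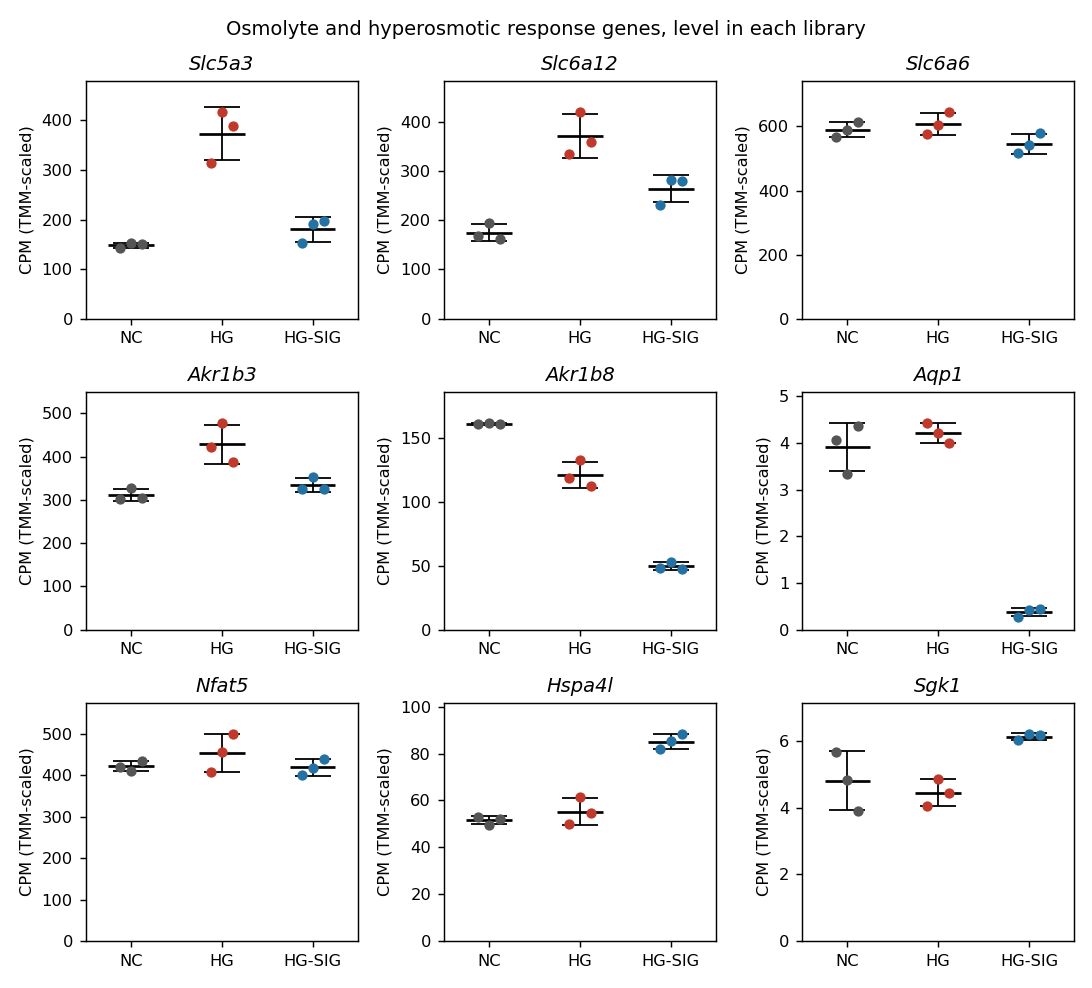
TMM-scaled CPM (y axis, from 0, a separate scale in each panel) of the 9 genes in each library of NC, HG and HG-SIG; points are libraries, and the horizontal lines and whiskers are the mean and SD of 3. Slc5a3, Slc6a12 and Akr1b3 are highest in all 3 HG libraries, Akr1b8 steps down from NC to HG to HG-SIG, and Aqp1 lies under 0.5 CPM in HG-SIG only.

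In HG against NC, 3 of the 9 genes rose and 1 fell, and the calls over all 13311 genes were 29.5% in either direction, 14.3% upward and 15.2% downward. In HG-SIG against HG, 2 rose and 6 fell, beside 52.5% of all genes in either direction, 25.7% upward and 26.8% downward. In HG-SIG against NC, 4 rose and 2 fell, beside 58.6% in either direction, 29.9% upward and 28.7% downward. The split in that last comparison depends on the setting: DESeq2 called 2 higher and 3 lower, and scaling by library size alone and limma on log2(TPM + 1) each called 6 higher and 2 lower. In HG against NC each of these called 3 higher and 1 lower. Values of the compared groups were fully separate for 4, 7 and 6 of the 9 genes in the 3 comparisons, and for 41.7%, 58.7% and 65.9% of all genes. Called changes of more than 1 on the log2 scale numbered 2, 3 and 2 in these comparisons, and 2.85%, 5.3% and 8.51% of all genes were called and changed that much. The median log2 fold change of the 9 was 0.10, -0.36 and 0.10, and that of all genes tested 0.003, 0.009 and 0.022. All 9 passed the filter on low counts; Aqp1 did so through NC and HG, since only 2 of its 3 HG-SIG libraries reached the minimum.

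The carriers for myo-inositol and betaine rose in high glucose, and the taurine carrier was not called. Slc5a3 (ENSMUSG00000089774, chromosome 16, 92058322 to 92087473 in mm10), the sodium-coupled myo-inositol carrier, had 142, 152 and 150 CPM in NC replicates 1 to 3, 314, 417 and 389 CPM in HG, and 152, 192 and 197 CPM in HG-SIG. Every HG library lay above every library of the other groups, whereas the highest NC library and the lowest HG-SIG library both round to 152 CPM, with HG-SIG just above. In HG the log2 fold change over NC was 1.33 ± 0.10 (SE, adjusted p = 8.6e-07), rank 60 of the 13311 genes from the top. With sitagliptin the level fell by 1.05 on the log2 scale (SE 0.10, adjusted p = 3.5e-06). A difference of 0.28 ± 0.10 from NC remained in HG-SIG (adjusted p = 0.031), but it was not called with DESeq2 (adjusted p = 0.091). It also passed under the threshold in only 4 of the 9 fits that left out 1 library, and was lost without any 1 NC replicate (adjusted p = 0.1, 0.059 and 0.061 without replicates 1, 2 and 3) and without HG-SIG replicate 2 (0.11) or 3 (0.12).

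Slc6a12 (ENSMUSG00000030109, chromosome 6, 121343076 to 121365775), the carrier for betaine and GABA, had 169, 194 and 161 CPM in NC, 335, 420 and 359 CPM in HG, and 232, 281 and 279 CPM in HG-SIG. The 3 groups did not overlap, with HG-SIG between the other two. Its log2 fold change was 1.09 ± 0.09 in HG against NC (adjusted p = 2.2e-06), -0.49 ± 0.09 in HG-SIG against HG (adjusted p = 7.3e-04) and 0.60 ± 0.09 in HG-SIG against NC (adjusted p = 1.3e-04). Unlike the difference of Slc5a3 from NC in HG-SIG, that of Slc6a12 was called in every fit that left out 1 library, at 0.54 to 0.69. Per kilobase, there were 0.207 ± 0.0185 Slc5a3 reads for each Slc6a12 read in NC, against 0.244 ± 0.0178 in HG and 0.165 ± 0.00584 in HG-SIG.

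Slc6a6 (ENSMUSG00000030096, chromosome 6, 91684053 to 91759066), the taurine carrier, was present at 566, 589 and 615 CPM in NC, 577, 605 and 645 CPM in HG and 517, 542 and 579 CPM in HG-SIG. These ranges overlap between all groups. The log2 fold change in HG against NC was 0.05, with a 95% interval of -0.07 to 0.16 (adjusted p = 0.56). In HG-SIG against HG it was -0.16 ± 0.05 (adjusted p = 0.023), a call that was lost without HG replicate 3 (adjusted p = 0.08) and without HG-SIG replicate 1 (0.11) or 2 (0.065). In HG-SIG against NC it was -0.11 ± 0.05 and not called (adjusted p = 0.083), although DESeq2 called it lower (adjusted p = 0.039). The comparison of HG-SIG with HG gave 0.00 with scaling by library size alone and 0.05 with limma on log2(TPM + 1), so its direction depends on the scaling. The TMM factors were 0.948 to 0.977 in NC and HG and 1.08 to 1.09 in HG-SIG, and scaling by library size alone moved the median of all genes to 0.169 in HG-SIG against HG and to 0.212 in HG-SIG against NC. Slc6a6 lay under that median in both comparisons.

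The Slc5a3 locus overlaps another gene. Its first exon shares 159 bases (chromosome 16, 92058322 to 92058480, plus strand) with the first exon of Mrps6, a gene for a protein of the small mitochondrial ribosomal subunit, so both transcripts can start within the same stretch. The shared bases are 1.46% of the exonic length of Slc5a3 and 10.37% of that of Mrps6. Mrps6 had 75.3, 88.6 and 74.1 CPM in NC, 155, 173 and 139 CPM in HG and 82.3, 89.9 and 83.8 CPM in HG-SIG. It rose in HG by 0.98 ± 0.08 on the log2 scale (adjusted p = 1.2e-06), fell by 0.87 with sitagliptin (SE 0.08, adjusted p = 1.6e-06), and had a log2 fold change of 0.11 in HG-SIG against NC (95% interval -0.07 to 0.28, adjusted p = 0.27). Part of the reads of the shared exon could have been counted for either gene, and this was not tested. A further gene model, Gm49711, shares the same 159 bases and had 2 or 3 counts over each group; across Slc6a6, 117 bases are shared with a transcript model on the other strand that is not in the table.

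The other genes with profiles most like that of Slc5a3 were named by the root mean square difference of log2 CPM over the 9 libraries, each gene centred on its own mean, among 10204 genes with an average log2 CPM of at least 2. The closest was Rarb, the retinoic acid receptor beta gene, at 0.112, with mean levels of 9.8, 25.4 and 11.4 CPM in NC, HG and HG-SIG. It was followed by Fam13c (0.177), the sestrin gene Sesn1 (0.18), the inducible HSP70 gene Hspa1b (0.186) and the kinase gene Stk38l (0.187). Mrps6 was the tenth at 0.206, and the median over all genes was 0.603. Hspa1b went from 6.57 ± 0.804 CPM in NC to 15.8 ± 3.5 in HG and 9.65 ± 0.913 in HG-SIG; it has a near-identical copy, Hspa1a, with 14, 11 and 10 counts per group, between which reads may have been divided.

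**Figure D2:**
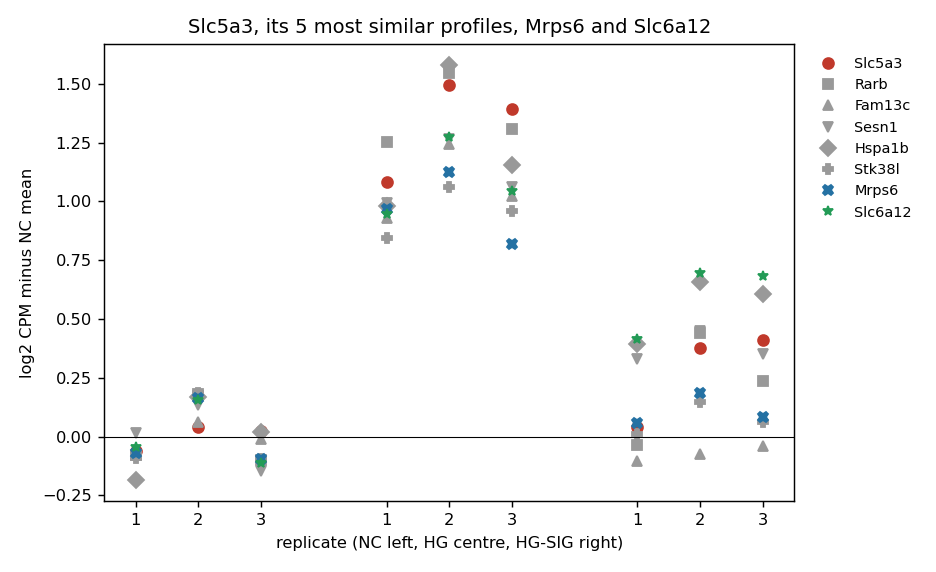
Log2 CPM of 8 genes minus their NC mean (y axis) in each library (x axis: replicates 1 to 3 of NC, HG and HG-SIG); red circles are Slc5a3, grey symbols its 5 most similar profiles, blue crosses Mrps6 and green stars Slc6a12. All 8 genes stand above their NC level in each HG library, and most lie nearer to it in HG-SIG, where Slc6a12 and Hspa1b remain the highest.

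The aldose reductase family genes moved apart. Akr1b3 (ENSMUSG00000001642, chromosome 6, 34302434 to 34317478), the mouse aldose reductase, had 301, 328 and 305 CPM in NC, 421, 477 and 387 CPM in HG, and 324, 353 and 326 CPM in HG-SIG. All HG libraries exceeded those of the other groups, and NC and HG-SIG overlapped. It rose in HG by 0.46 ± 0.07 on the log2 scale (adjusted p = 2.0e-04) and fell by 0.36 with sitagliptin (SE 0.07, adjusted p = 6.6e-04). In HG-SIG against NC the log2 fold change was 0.10 (95% interval -0.04 to 0.25, adjusted p = 0.21). By library size alone that last value was 0.29 (adjusted p = 0.0011) and with limma on log2(TPM + 1) it was 0.33 (adjusted p = 3.3e-04), both past the threshold, beside the shift of the median given above.

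Akr1b8 (ENSMUSG00000029762, chromosome 6, 34354119 to 34368463) encodes a related reductase that acts on lipid-derived aldehydes and is known in mouse as a gene induced by fibroblast growth factor. Its level was 161, 162 and 161 CPM in NC, 119, 133 and 113 CPM in HG, and 48.4, 53.4 and 47.4 CPM in HG-SIG. The 3 groups were fully separate, in the order NC, HG, HG-SIG. It fell in HG by 0.40 on the log2 scale (SE 0.06, adjusted p = 1.5e-04) and by a further 1.29 with sitagliptin (SE 0.06, adjusted p = 3.3e-09). Against NC the log2 fold change in HG-SIG was -1.70 ± 0.06 (adjusted p = 8.8e-11). Per kilobase, Akr1b3 gave 1.89 ± 0.0818 times the reads of Akr1b8 in NC, 3.44 ± 0.0843 times in HG and 6.59 ± 0.128 times in HG-SIG, with no overlap between groups. Which of the 2 is higher rests on the length: over all annotated exons Akr1b3 had 37.2, 51.1 and 39.9 CPM per kilobase in NC, HG and HG-SIG, and Akr1b8 had 108, 81.3 and 33.2. The neighbouring paralogs Akr1b10 and Akr1b7 had log2 fold changes of -0.03 (not called) and -1.04 (adjusted p = 0.033) in HG-SIG against HG. The Akr1b7 call was lost with DESeq2 (adjusted p = 0.11) and by library size alone (0.059). Against NC, Akr1b10 was called lower in HG (-0.17) and in HG-SIG (-0.2), and Akr1b7 in HG-SIG only (-1.15). The Akr1b10 call in HG against NC was lost with DESeq2 and with limma on log2(TPM + 1). How reads that match several of these paralogs were divided is not given in the sources used here, so their values are uncertain to that extent.

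Aqp1 (ENSMUSG00000004655, chromosome 6, 55336432 to 55348555), the water channel gene, was a rare transcript that fell further with sitagliptin than the other 8 genes did. Replicates 1 to 3 of NC held 122, 81 and 130 counts, those of HG 127, 107 and 91, and those of HG-SIG 9, 13 and 15, which are 4.05, 3.34 and 4.35 CPM, 4.42, 4.2 and 4 CPM, and 0.284, 0.418 and 0.447 CPM. NC and HG overlapped, with a log2 fold change of 0.10 (95% interval -0.20 to 0.40, adjusted p = 0.63). HG-SIG lay below all of them: the log2 fold change was -3.44 ± 0.19 against HG (adjusted p = 1.8e-08) and -3.34 ± 0.19 against NC (adjusted p = 1.3e-08). Only 15 of the 13311 genes had a lower fold change in HG-SIG against HG. The macrophage marker sum was also lower in HG-SIG (5220 to 5330 CPM, against 10000 to 10800 in HG), and its part in the falls of Aqp1 and Akr1b8 was not tested.

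Nfat5 itself was not called in any of the 3 comparisons. The gene (ENSMUSG00000003847, chromosome 8, 107293470 to 107379517) had 419, 411 and 435 CPM in NC, 407, 456 and 499 CPM in HG, and 400, 418 and 439 CPM in HG-SIG. The groups overlapped, and HG spread most, from below every NC library to above every library of the other groups. The log2 fold change was 0.10 in HG against NC (95% interval -0.03 to 0.24, adjusted p = 0.25), -0.11 in HG-SIG against HG (-0.25 to 0.02, adjusted p = 0.15) and -0.01 in HG-SIG against NC (-0.15 to 0.13, adjusted p = 0.9). Without HG replicate 1 the first was 0.18 (adjusted p = 0.029) and the second -0.19 (adjusted p = 0.013), so both passed the threshold in that fit. In HG-SIG against NC, library size alone gave 0.18 (adjusted p = 0.024) and limma on log2(TPM + 1) 0.22 (adjusted p = 0.016). Those values are close to the median of all genes in the same fits, 0.212 and 0.226. RNA level does not report where the protein is or how active it is.

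The genes most like Nfat5 over the 9 libraries by the measure used for Slc5a3 were the splicing factor gene Srsf4 (0.034), the mRNA export gene Thoc2 (0.034), Dennd4a (0.035), the centriolin gene Cntrl (0.039) and the homeobox gene Pbx2 (0.04), against a median of 0.166 over all genes. Srsf4 had mean levels of 87, 91.8 and 87.2 CPM in NC, HG and HG-SIG.

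Hspa4l and Sgk1 were higher in HG-SIG than in both other groups, and neither was called in HG against NC. Hspa4l (ENSMUSG00000025757, chromosome 3, 40744495 to 40796103) had 52.8, 49.5 and 52 CPM in NC, 49.7, 61.3 and 54.5 CPM in HG, and 81.8, 85.3 and 88.2 CPM in HG-SIG. Its HG-SIG libraries lay above all others. The log2 fold change was 0.63 ± 0.06 in HG-SIG against HG (adjusted p = 4.3e-06), 0.72 ± 0.06 in HG-SIG against NC (adjusted p = 6.9e-07) and 0.10 in HG against NC (95% interval -0.04 to 0.24, adjusted p = 0.3). Of its HSP110 relatives, Hspa4 had 519 ± 9.11, 550 ± 9.55 and 516 ± 22.2 CPM in NC, HG and HG-SIG, and Hsph1 339 ± 15.7, 332 ± 13.6 and 347 ± 7.9. Of these 2 relatives, 0 were called by edgeR in the 3 comparisons, with 1, 1 and 0 at an unadjusted p under 0.05. DESeq2 called 0, 1 and 0 of them, and its 1 call was lower. Scaling by library size alone called 1, 1 and 2, all higher.

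Sgk1 (ENSMUSG00000019970, chromosome 10, 21882184 to 21999903) was scarce, with 101 to 207 counts per library. Its level was 5.68, 4.83 and 3.91 CPM in NC, 4.04, 4.87 and 4.44 CPM in HG, and 6.03, 6.2 and 6.17 CPM in HG-SIG. The HG-SIG libraries were the highest, and NC was the most scattered. It rose with sitagliptin by 0.47 ± 0.13 over HG (adjusted p = 0.0079). The difference of 0.35 ± 0.12 from NC (adjusted p = 0.027) was lost with DESeq2 (adjusted p = 0.087), without NC replicate 2 (0.058) or 3 (0.13) and without any 1 HG-SIG replicate (0.05, 0.064 and 0.059 without replicates 1, 2 and 3). In HG against NC the log2 fold change was -0.11 (95% interval -0.40 to 0.17, adjusted p = 0.57).

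**Figure D3:**
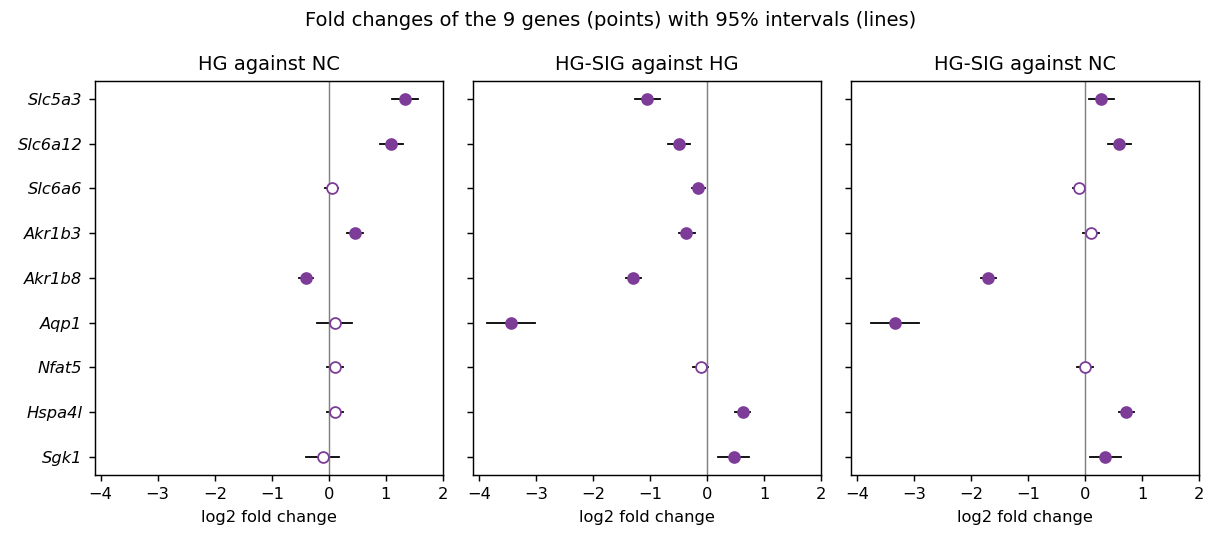
Log2 fold change (x axis) of the 9 genes in the 3 comparisons; points are edgeR estimates, filled where the adjusted p is under 0.05, and lines are 95% intervals. Slc5a3, Slc6a12 and Akr1b3 lie to the right in HG against NC and to the left in HG-SIG against HG, which share the HG libraries, while Aqp1 lies near -3.4 in HG-SIG against HG and Hspa4l and Sgk1 lie to the right.

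Other genes linked to NFAT5, osmolytes and cell volume were taken from lists of related genes. Over all 13311 genes, 14.3% rose and 15.2% fell in HG against NC. In HG-SIG the shares were 25.7% and 26.8% against HG, and 29.9% and 28.7% against NC. The counts of this and the next lists are to be read beside these shares. Of 13 targets of NFAT5 outside the 9, 12 were in the table and 7 were tested; 2 rose and 4 fell in HG against NC, 0 rose and 6 fell in HG-SIG against HG, and 2 rose and 5 fell in HG-SIG against NC. By library size alone the middle comparison had 1 higher and 4 lower. The medians were -0.99, -0.55 and -1.54. Those that rose in HG were Hspa1b (1.27) and the amino acid carrier gene Slc38a2 (0.30). Those that fell were inflammatory or angiogenic genes: the cytokine gene Tnf (-2.24 ± 0.06 on the log2 scale, 193 ± 5.54 CPM in NC and 40.9 ± 2.46 in HG), the chemokine gene Ccl2 (-0.99), the lymphatic growth factor gene Vegfc (-1.46) and the nitric oxide synthase gene Nos2 (67 counts in all NC libraries and 9 in all HG libraries). Vegfc fell further, from 1.1 ± 0.271 CPM in HG to 0.145 ± 0.0151 in HG-SIG (adjusted p = 1.2e-05). Nos2 had 0 counts in HG-SIG. Taking 3 counts over the group in place of 0, it was at least 25.5-fold lower there than in NC. With Nos2 at that bound the list's medians in HG-SIG against HG and against NC were the same. Nos2 passed the filter on low counts through NC only, the group where it is highest. It is among the genes counted as lower in all 3 comparisons, also in HG-SIG against HG, where both groups lie under the minimum. The others, Hspa1a, Hspb1, Slc14a2, Lta and Il6, had at most 25 counts in a group and were not tested.

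Of 15 genes of osmolyte metabolism, 12 were tested; 2 rose and 2 fell in HG against NC, 5 rose and 1 fell in HG-SIG against HG, and 8 rose and 2 fell in HG-SIG against NC (medians -0.05, 0.14 and 0.26); by library size alone the middle comparison had 9 higher and 0 lower. The genes of inositol synthesis Isyna1, which makes inositol phosphate from glucose phosphate, and Impa2, which releases the free inositol, both rose in HG. Isyna1 went from 90.3 ± 4.14 to 108 ± 4.95 CPM (0.25 ± 0.04 on the log2 scale, adjusted p = 8.7e-04) and Impa2 from 22.5 ± 1.26 to 26.7 ± 1.68 CPM (0.25 ± 0.06, adjusted p = 0.0086). Neither was called between HG-SIG and HG (adjusted p = 0.88 and 0.44). With sitagliptin the taurine synthesis gene Csad rose from 6.32 ± 0.449 to 8.71 ± 0.533 CPM (0.46 ± 0.09, adjusted p = 9.4e-04), the betaine aldehyde dehydrogenase gene Aldh7a1 from 6.22 ± 0.479 to 9.43 ± 0.32 CPM (0.60 ± 0.09, adjusted p = 1.8e-04) and the phospholipase gene Pnpla6, whose product yields glycerophosphocholine, from 39.8 ± 3.66 to 51.3 ± 4.82 CPM (0.37 ± 0.07, adjusted p = 8.7e-04). The largest rise of the list with sitagliptin was that of Gdpd1, from 1.21 ± 0.144 to 2.78 ± 0.376 CPM (1.21 ± 0.17, adjusted p = 9.4e-05). Of the 12 tested genes, 6 were not called in HG-SIG against HG. Sord, whose enzyme turns sorbitol into fructose, had log2 fold changes of 0.11 and 0.14, not called, in HG against NC and in HG-SIG against HG.

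Among 8 transporters related to the osmolyte carriers, 5 were tested, and 1 rose and 1 fell in HG against NC, 1 rose and 2 fell in HG-SIG against HG, and 1 rose and 4 fell in HG-SIG against NC (medians 0.13, -0.06 and -0.29). By library size alone 1 fell in the last of these. Slc6a13, a GABA and taurine carrier close to Slc6a12 in sequence, went from 21.5 ± 1.94 CPM in NC to 24.1 ± 2.13 in HG, which was not called (adjusted p = 0.13), and fell to 14.3 ± 0.377 in HG-SIG (-0.76 ± 0.08, adjusted p = 6.2e-06). Slc6a8, the creatine carrier, fell with sitagliptin by 0.42 on the log2 scale (SE 0.08, adjusted p = 0.0012). Slc2a13, the proton-coupled myo-inositol carrier, had very few counts (2 over NC, 11 over HG and 39 over HG-SIG) and was called higher at both steps (adjusted p = 0.042 and 0.017). DESeq2 gave no adjusted p for the first step and 0.13 for the second, and limma on log2(TPM + 1) gave 0.5 and 0.057, so both calls were lost there. Slc2a13 passed the filter on low counts through HG-SIG only, the group where it is highest. It is the 1 gene of this list counted as higher in each comparison, so those counts rest on it alone. Of the other aquaporins, Aqp11 was tested: its libraries held 30 counts over NC, 47 over HG and 124 over HG-SIG, and it rose in HG-SIG against HG (1.07 ± 0.34, adjusted p = 0.018), opposite to Aqp1. Aqp9, which also passes glycerol, had 37, 5 and 7 counts and was not tested.

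The 19 genes of cell volume control include the sodium and chloride carriers, their WNK kinases and the LRRC8 subunits of the volume-regulated anion channel. Of the 17 tested, 1 rose and 4 fell in HG against NC, 6 rose and 5 fell in HG-SIG against HG, and 6 rose and 7 fell in HG-SIG against NC (medians -0.05, 0.16 and -0.02); by library size alone these were 1 and 2, 9 and 3, and 8 and 3. Slc12a4, a potassium chloride cotransporter used by swollen cells to lose salt, fell at both steps, from 79.8 ± 1.68 CPM in NC to 60.6 ± 2.2 in HG (adjusted p = 3.3e-05) and 47.1 ± 2.78 in HG-SIG (adjusted p = 4.4e-05). Slc12a2, the cotransporter by which shrunken cells gain salt, rose with sitagliptin from 54.2 ± 5.71 to 67.5 ± 2.06 CPM (0.32 ± 0.07, adjusted p = 0.0021), as did its upstream kinase gene Wnk1 (0.33 ± 0.05, adjusted p = 1.1e-04). The channel subunit gene Lrrc8c rose in HG (0.30 ± 0.08, adjusted p = 0.011), and Lrrc8d fell with sitagliptin (-0.29 ± 0.05, adjusted p = 5.0e-04; with limma on log2(TPM + 1) -0.08, adjusted p = 0.24).

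All 14 kinases and regulators upstream of NFAT5 were tested; 5 rose and 3 fell in HG against NC, 3 rose and 7 fell in HG-SIG against HG, and 3 rose and 7 fell in HG-SIG against NC (medians 0.01, -0.08 and -0.06). By library size alone these counts were 5 and 2, 6 and 1, and 6 and 1, so the split in the comparisons with HG-SIG depends on the scaling. Map2k6 and Map2k3 both encode kinases that activate p38 and went opposite ways. Map2k6, the scarcer, rose from 0.878 ± 0.275 CPM in NC to 1.72 ± 0.264 in HG (adjusted p = 0.0065) and 3.46 ± 0.0998 in HG-SIG (adjusted p = 5.6e-04), whereas Map2k3 fell from 196 ± 11.7 in HG to 163 ± 4.77 in HG-SIG (-0.26 ± 0.05, adjusted p = 4.7e-04; by library size alone -0.10, adjusted p = 0.06). Ccm2, a scaffold of the osmosensing p38 pathway, rose with sitagliptin (0.37 ± 0.05, adjusted p = 3.2e-05). Dhx9, an RNA helicase that binds NFAT5, rose in HG (0.16 ± 0.04, adjusted p = 0.0092) and fell with sitagliptin (-0.41 ± 0.04, adjusted p = 3.5e-06).

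Among the 3 tested relatives of Nfat5, Nfatc1, a calcium-regulated factor, fell at both steps, from 535 ± 51.4 CPM in NC to 324 ± 7.78 in HG (-0.72 ± 0.06, adjusted p = 1.2e-06) and 89.8 ± 3.62 in HG-SIG (-1.85 ± 0.06, adjusted p = 1.8e-10). Nfatc3 rose with sitagliptin (0.26 ± 0.04, adjusted p = 1.4e-04), and Nfatc2 had log2 fold changes of -0.01 and -0.12, not called. The list's medians were -0.01, -0.12 and -0.13. Of 10 partners of SGK1, 9 were tested; 2 rose and 1 fell in HG against NC, 5 rose and 3 fell in HG-SIG against HG, and 5 rose and 2 fell in HG-SIG against NC (medians 0.03, 0.12 and 0.30). DESeq2 called 3 higher and 3 lower in the middle comparison, and library size alone 7 higher and 1 lower in the last. The SGK1 substrate genes Ndrg1 and Ndrg2 went opposite ways in HG. Ndrg2 rose by 1.11 ± 0.06 on the log2 scale (129 ± 10.7 CPM before and 277 ± 12.4 after, adjusted p = 1.6e-08) and fell to 173 ± 6.03 in HG-SIG (adjusted p = 6.9e-07). Ndrg1 fell by 1.08 (SE 0.15, 106 ± 15.5 CPM before and 50.4 ± 7.09 after, adjusted p = 1.1e-04) and then to 33 ± 7.65 in HG-SIG (adjusted p = 0.0052). Pdpk1, the kinase that activates SGK1, rose with sitagliptin (0.53 ± 0.07, adjusted p = 7.2e-05).

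**Figure D4:**
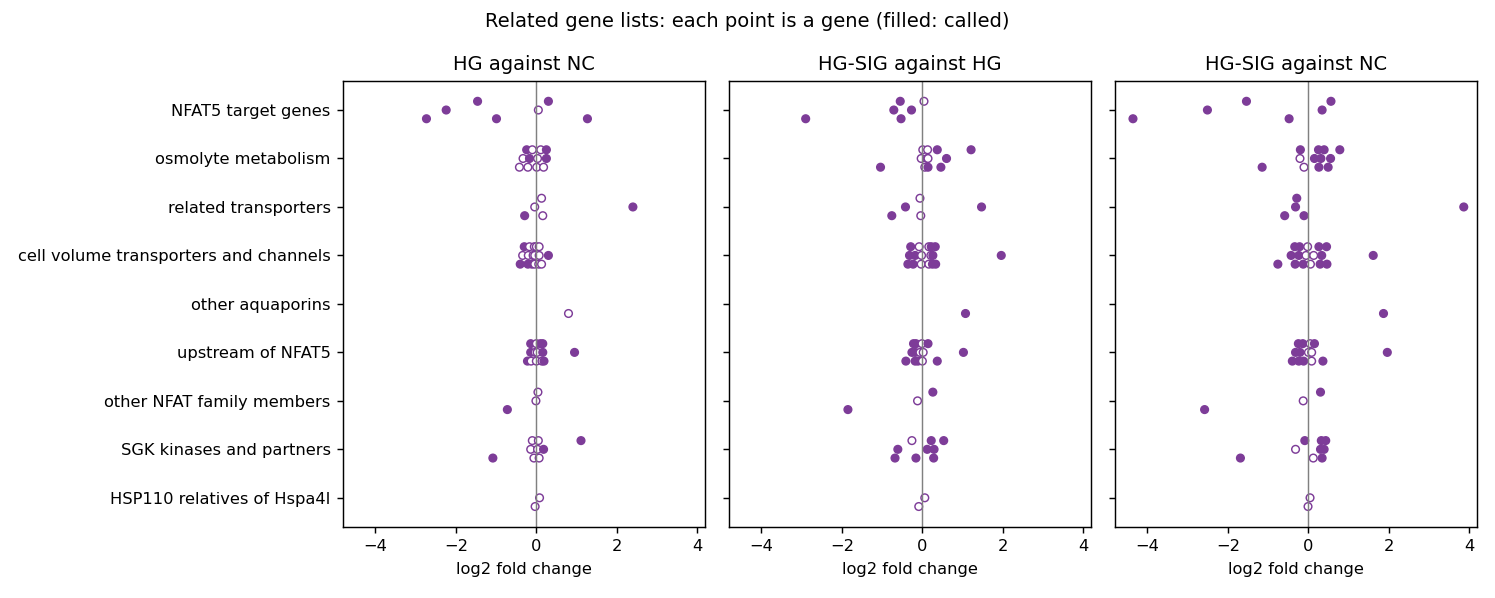
Log2 fold change (x axis) of the tested genes of 9 related lists (y axis) in the 3 comparisons; each point is a gene, filled where the adjusted p is under 0.05. Nos2 is left out of both comparisons with HG-SIG, where it had 0 counts; Vegfc and Nfatc1 lie far to the left there, the cell volume gene furthest to the right in HG-SIG against HG is Wnk4 (1.96), and most genes of the upstream and cell volume lists lie within 0.5 of 0.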

How the data were processed

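Polyadenylated RNA was sequenced in 9 libraries, 3 per group by the sample titles. The deposited values are read counts per gene, whole numbers that were tested as they stood; reads were processed with the build mm10, RSEM and Bowtie2 2.3.5, per the submitters' processing notes. The sources used here do not give the annotation release, the strand setting or any rounding of RSEM estimates. The table holds 20627 features, of which 1996 unannotated loci took 5.85% to 6.21% of a library's counts and stayed in the tests. Coordinates and lengths come from GENCODE M21, on the same assembly as mm10.

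Counts were filtered with filterByExpr (13311 genes left), scaled with TMM and fitted in edgeR 4.0.16 (R 4.3.3) with 1 mean per group over all 9 libraries; each pair of groups was tested with the quasi-likelihood F-test and Benjamini-Hochberg adjustment over all genes tested. Every adjusted p in the text is from this test unless DESeq2 1.42.0 or limma 3.58.1 is named. The script was tested on simulated counts. A floor of 3 counts per library is 0.0895 to 0.132 CPM, and the bound for Nos2 takes 3 counts over the group; both cover counting error only. The 95% intervals are from the edgeR fit. Library size alone, no filter, DESeq2, limma-voom, limma on log2(TPM + 1), fits on 2 groups, a replicate block and leaving out each library were tried.

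The 9 genes and the lists of related genes were chosen with earlier results of these data known. Named beside the 9 were genes sharing exons with them, up to 6 genes of each list by smallest p, untested list members, Slc38a2, Sord, Akr1b7, Akr1b10 and Wnk4 (these 5 named after their values were seen), and the 5 most similar profiles of Nfat5 and Slc5a3.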

Additional observations from a re-analysis of the deposited data

How the results depend on the processing

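Among the log2 fold changes of the 9 genes under every alternative, 394 kept direction and side of the threshold, and 12 changed sign. Of the others, which kept direction, 15 lost the call and 11 gained it. Some of the 12 also changed call, by library size alone and with limma on log2(TPM + 1). In both fits Slc6a6 lost its call in HG-SIG against HG, and Nfat5 gained one in HG-SIG against NC. Scaling by library size alone changed the sign for Nfat5 in HG-SIG against HG (0.05) and against NC (0.18) and for Slc6a6 in HG-SIG against HG (0.00) and against NC (0.08). Limma on log2(TPM + 1) did so in the same 4, with 0.09 and 0.22 for Nfat5 and 0.05 and 0.12 for Slc6a6; both fits lack the TMM factors. Leaving out a library changed the sign for Slc6a6 in HG against NC (0.00 without HG replicate 3, up to 0.08), for Sgk1 in HG against NC (0.03 without NC replicate 1, down to -0.25) and for Nfat5 in HG-SIG against NC (0.01 without NC replicate 3, 0.02 without HG-SIG replicate 1, down to -0.05); none of these is called. Leaving out 1 library gave 4 to 5 called of the 9 in HG against NC, 7 to 9 in HG-SIG against HG and 4 to 7 in HG-SIG against NC. Over all genes it gave 3062 to 4000, 6193 to 7147 and 7106 to 8191 calls, against 3927, 6989 and 7801. By library size alone 58.9%, 76.9% and 76.2% of calls were higher, against 48.4%, 48.9% and 51%. Same-numbered libraries deviated together only weakly (correlations 0 to 0.1), and a library resembled its own number best in 13 of 18 cases. The labels do not say whether the numbers pair the libraries, and these values cannot decide it. With a replicate block 4663, 7563 and 8282 genes were called. The block added calls for Nfat5 in HG-SIG against HG (-0.11, adjusted p = 0.032) and, in HG-SIG against NC, for Slc6a6 (-0.11, adjusted p = 0.0028) and Akr1b3 (0.10, adjusted p = 0.035). Dividing by the length of all annotated exons, a choice made after seeing the data, moved the CPM per kilobase of Akr1b3 most. Depth limits Aqp1 in HG-SIG and Sgk1, each of few counts.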
